A study of Mus musculus with 9 samples.

Results

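The genes of the interferon response and of class I antigen presentation were examined as a group of 46 named genes in MLP29 cells, a line of mouse liver progenitor cells, on Affymetrix Mouse430A_2 arrays. The group was defined by gene name alone, with no measured value in the rule. Earlier results of these data were known when the genes were chosen. Of the 46 genes, 43 had at least 1 probe set that named them and no other gene, which gave 75 probe sets of 22626 and 43 genes of 12393. Ddx58 and Ifi44 had no probe set named for them here, and Isg15 was named only by a probe set that also named Gm9706. Each gene was followed by its brightest probe set (highest mean over all arrays), and the other probe sets of a gene are given beside it.

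The 9 arrays came from 3 independent experiments, each with 1 array of untreated cells, 1 of cells stimulated with HGF/SF1 (20 ng/ml), the growth factor that makes these cells scatter, and 1 of cells exposed to the function-blocking antibody BMB5 against α5β1 integrin (10 µg/ml), a receptor for fibronectin. All cells, untreated ones included, had been held in 0.1% FBS for at least 16 h beforehand. Both treatments are given as 24 h long. All cells were of 1 line. The methods mention control experiments with an IgG antibody in general, but the labels do not say that the control cells of these arrays received it, and on the labels the mere presence of an antibody and the loss of integrin function cannot be told apart.

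Interferons are secreted proteins that warn cells of infection. Type I interferons bind the receptor pair Ifnar1 and Ifnar2, and interferon gamma binds Ifngr1 and Ifngr2; Janus kinases then phosphorylate STAT proteins, and a complex that holds Stat2 and Irf9 drives genes through interferon-stimulated response elements. Viral RNA is sensed by the helicases encoded by Ddx58, Ifih1 and Dhx58, which lead to phosphorylation of Irf3 and to interferon production. The induced genes block viral replication or entry, attack vacuolar pathogens, and load peptides onto class I molecules for display to T cells.

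A regulatory sequence named after the interferon response can be read in the DNA around the start of some of the genes. Windows of 300 bases, 250 before and 50 after the annotated start, were given for 40 of the 46 members (RefSeq, GRCm38.p6); Dhx58, Mx1, Mx2, Usp18, Iigp1 and Tap2 had none. The letters GAAANNGAAA on either strand, the core of the interferon-stimulated response element, stood in the windows of 17 of the 40 members (42.5%) and in those of 1079 of all 27025 genes (3.99%). The letters TTCNNNGAA, which read the same on both strands and which STAT dimers recognise, stood in 12 of the 40 (30.0%) and in 9.55% of all genes. In 5 members both were present (Oas1a, Eif2ak2, Bst2, Ifitm3 and Igtp), and in 16 neither. A match says only that the letters are there. Below are the 250 bases before the start, 5′ to 3′ on the strand of the gene, of 5 members. Ifit1 and B2m are shown as an antiviral gene and an antigen presentation gene with the GAAANNGAAA letters, Stat2 and Irgm1 as the members with those letters that had large differences under the antibody, and Ifnar2, which lacks them, for its TTCNNNGAA letters; the capitals mark these matches, and the 2 matches of Irgm1 overlap. The windows lie on the plus strand at chr19:34640639-34640888 (Ifit1), chr2:122147437-122147686 (B2m), chr10:128270248-128270497 (Stat2) and chr16:91372533-91372782 (Ifnar2), and on the minus strand at chr11:48871421-48871670 (Irgm1).
Ifit1: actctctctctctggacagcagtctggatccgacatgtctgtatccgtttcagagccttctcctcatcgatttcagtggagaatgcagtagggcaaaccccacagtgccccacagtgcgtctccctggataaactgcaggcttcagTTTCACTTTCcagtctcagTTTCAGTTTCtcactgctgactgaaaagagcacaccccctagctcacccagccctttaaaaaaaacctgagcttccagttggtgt
B2m: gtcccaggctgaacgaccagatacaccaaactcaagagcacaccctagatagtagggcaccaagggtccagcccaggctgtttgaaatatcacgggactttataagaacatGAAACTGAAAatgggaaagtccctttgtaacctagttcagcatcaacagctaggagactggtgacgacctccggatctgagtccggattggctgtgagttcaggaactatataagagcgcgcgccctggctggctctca
Stat2: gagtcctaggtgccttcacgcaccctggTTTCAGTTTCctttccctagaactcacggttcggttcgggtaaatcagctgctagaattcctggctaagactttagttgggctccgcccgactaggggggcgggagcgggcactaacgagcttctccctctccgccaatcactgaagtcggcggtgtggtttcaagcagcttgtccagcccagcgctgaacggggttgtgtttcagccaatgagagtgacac
Irgm1: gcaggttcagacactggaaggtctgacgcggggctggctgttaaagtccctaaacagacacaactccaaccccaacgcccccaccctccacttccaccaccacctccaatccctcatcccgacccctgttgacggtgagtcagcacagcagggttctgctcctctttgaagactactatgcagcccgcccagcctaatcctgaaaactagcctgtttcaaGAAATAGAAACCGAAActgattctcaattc
Ifnar2: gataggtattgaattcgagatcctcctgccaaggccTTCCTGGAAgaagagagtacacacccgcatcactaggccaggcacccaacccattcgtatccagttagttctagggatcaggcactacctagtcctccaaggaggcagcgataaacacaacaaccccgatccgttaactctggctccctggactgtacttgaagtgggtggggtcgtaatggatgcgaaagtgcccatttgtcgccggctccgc

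Keratins and E-cadherin, which mark epithelial cells, were among the bright probe sets. Brightness does not measure relative amounts between genes. Of 10 measured epithelial and liver progenitor markers, 6 lay above the median brightness of all probe sets (Krt7, Krt8, Krt18, Krt19, Cdh1 and Hnf4a). Epcam, Sox9, Afp and Alb, the other measured genes of that list, did not. Above the median were also 2 of 11 leukocyte markers (Cd14 and Cd68), 0 of 6 endothelial markers and 0 of 8 fibroblast and stellate markers. The log2 of the summed linear values of the leukocyte list ran from 11.79 to 12.25 in untreated arrays. It ran from 11.79 to 12.17 under HGF/SF1 and from 11.21 to 12.42 under the antibody. Such a sum is set mostly by the brightest genes of a list. Against untreated cells 1 of the 11 rose under the antibody and 0 fell; it was Cd68, a lysosomal protein abundant in macrophages (2.60, SE 0.65, limma, adjusted p = 0.207). The endotoxin co-receptor gene Cd14 read 11.95, 12.18 and 11.68 in untreated cells and 12.34, 11.33 and 10.52 under the antibody (-0.54, SE 0.39) and did not pass. Against HGF/SF1, Cd68 was higher and Itgax, an integrin of dendritic cells, lower (-0.27), and the leukocyte antigen Ptprc was below the median brightness. The part of such cells in the results was not tested. Correlations between arrays ran from 0.971 to 0.997.

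Most of the interferon-induced effector genes were dim in these cells, and the receptor genes and 4 of the 7 class I genes were bright. The brightest probe set of 19 members lay above the median of all probe sets, among them all 4 receptor genes, Stat2, Irf1, Irf3, B2m, Tapbp, H2-K1 and H2-D1. The other 24 lay below it, among them Ifit1, Ifit2, Ifit3, Mx1, Mx2, Rsad2, Usp18, Oasl2, Gbp2, Gbp3, Irf7, Irf8, Tap1, Tap2 and Cd274. A dim probe set does not show that a transcript was absent, since no detection calls were used here.

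**Figure D1:**
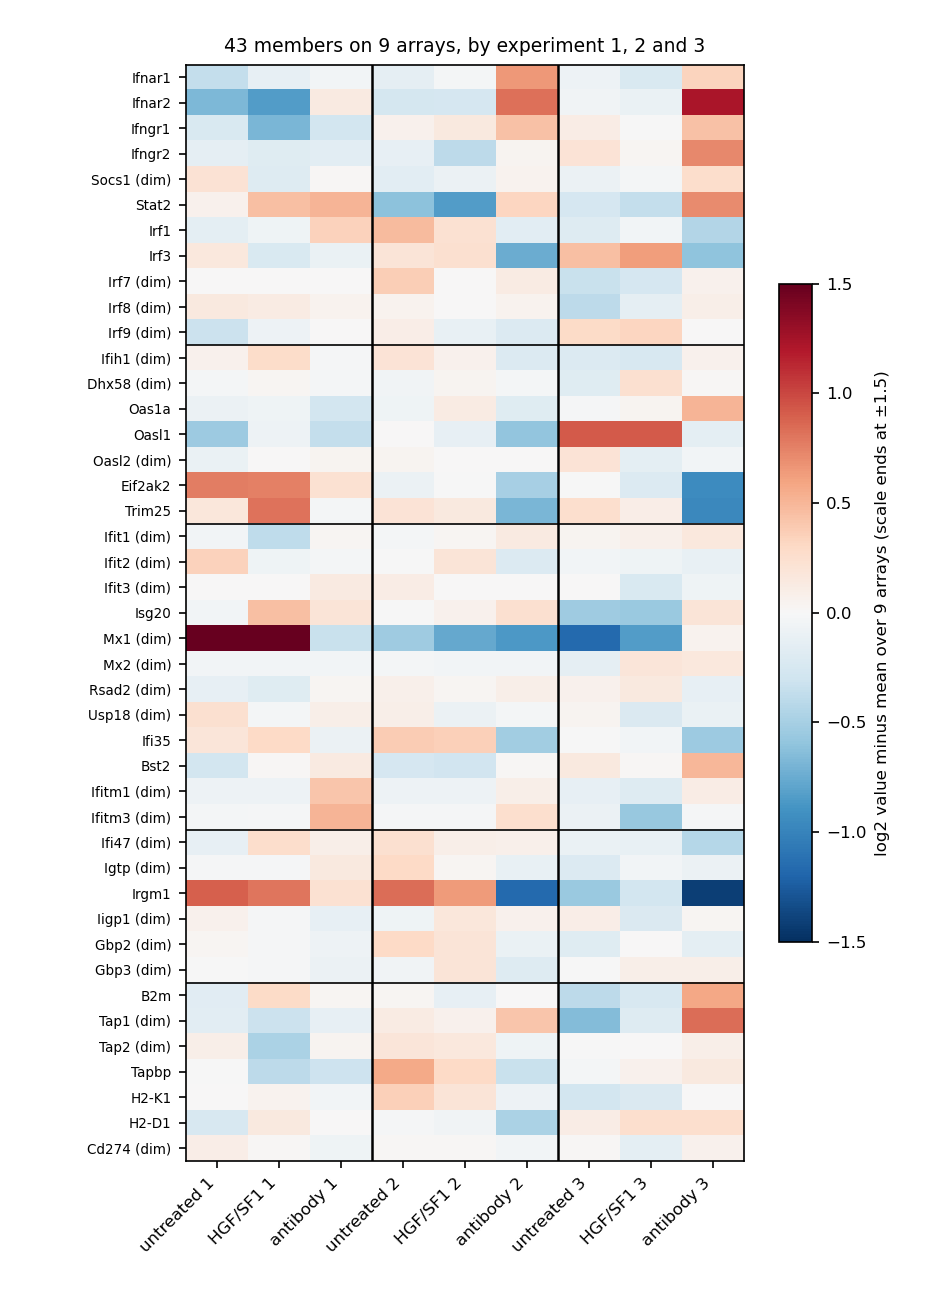
Each of the 43 measured members (rows, ordered by role, with dim for a probe set below the median brightness) on each of the 9 arrays (columns, ordered by experiment), as log2 value minus the gene's mean over the 9 arrays. Ifnar2 and Stat2 are red under the antibody, and Irgm1, Trim25, Irf3, Eif2ak2 and Ifi35 blue on antibody arrays 2 and 3, while most dim effector genes stay pale and Mx1 is high on the untreated and HGF/SF1 arrays of experiment 1 alone.

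Under the antibody to α5β1 integrin a few genes passed in each direction. Compared with untreated cells, 4 of 43 members rose (Ifnar1, Ifnar2, Stat2 and Ifitm1; 9.30%) and 3 fell (Irf3, Trim25 and Ifi35; 6.98%) at an unadjusted p under 0.05 in limma, the p-value threshold of the study's methods. Over all 12393 genes 4.68% rose and 7.92% fell at that threshold. After Benjamini-Hochberg adjustment 0 of 43 members passed, against 0.0403% of all genes. The median log2 difference of the members was -0.04, against -0.0018 over all genes. Of the 43, 18 lay above 0, where 49.7% of all genes did. Their median absolute difference was 0.14, as it was over all genes.

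Among the 19 bright members 3 rose and 3 fell, where 6.84% and 13.0% of the 6723 bright genes did. Ifitm1 was the only dim member that passed in this comparison. On 5 members (Ifnar1, Ifnar2, Stat2, Ifitm1 and Isg20) all 3 antibody arrays lay above all 3 untreated arrays, which held for 6.21% of all genes, and on 3 (Irf3, Trim25 and Ifi35) all lay below, which held for 8.8%.

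The experiment as a block removes differences shared by the arrays of 1 experiment. With it 6 members rose (Bst2 and Tap1 were added, background 7.81% of all genes) and 5 fell (Eif2ak2 and Irgm1 were added, background 10.7%). Under the block 1 member passed after adjustment, Ifnar2 (limma, adjusted p = 0.046), against 0.121% of all genes. Without the 3 arrays of experiment 2, none of the 7 members passed (0 higher and 0 lower), and over all genes 1.67% rose and 2.22% fell.

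**Figure D2:**
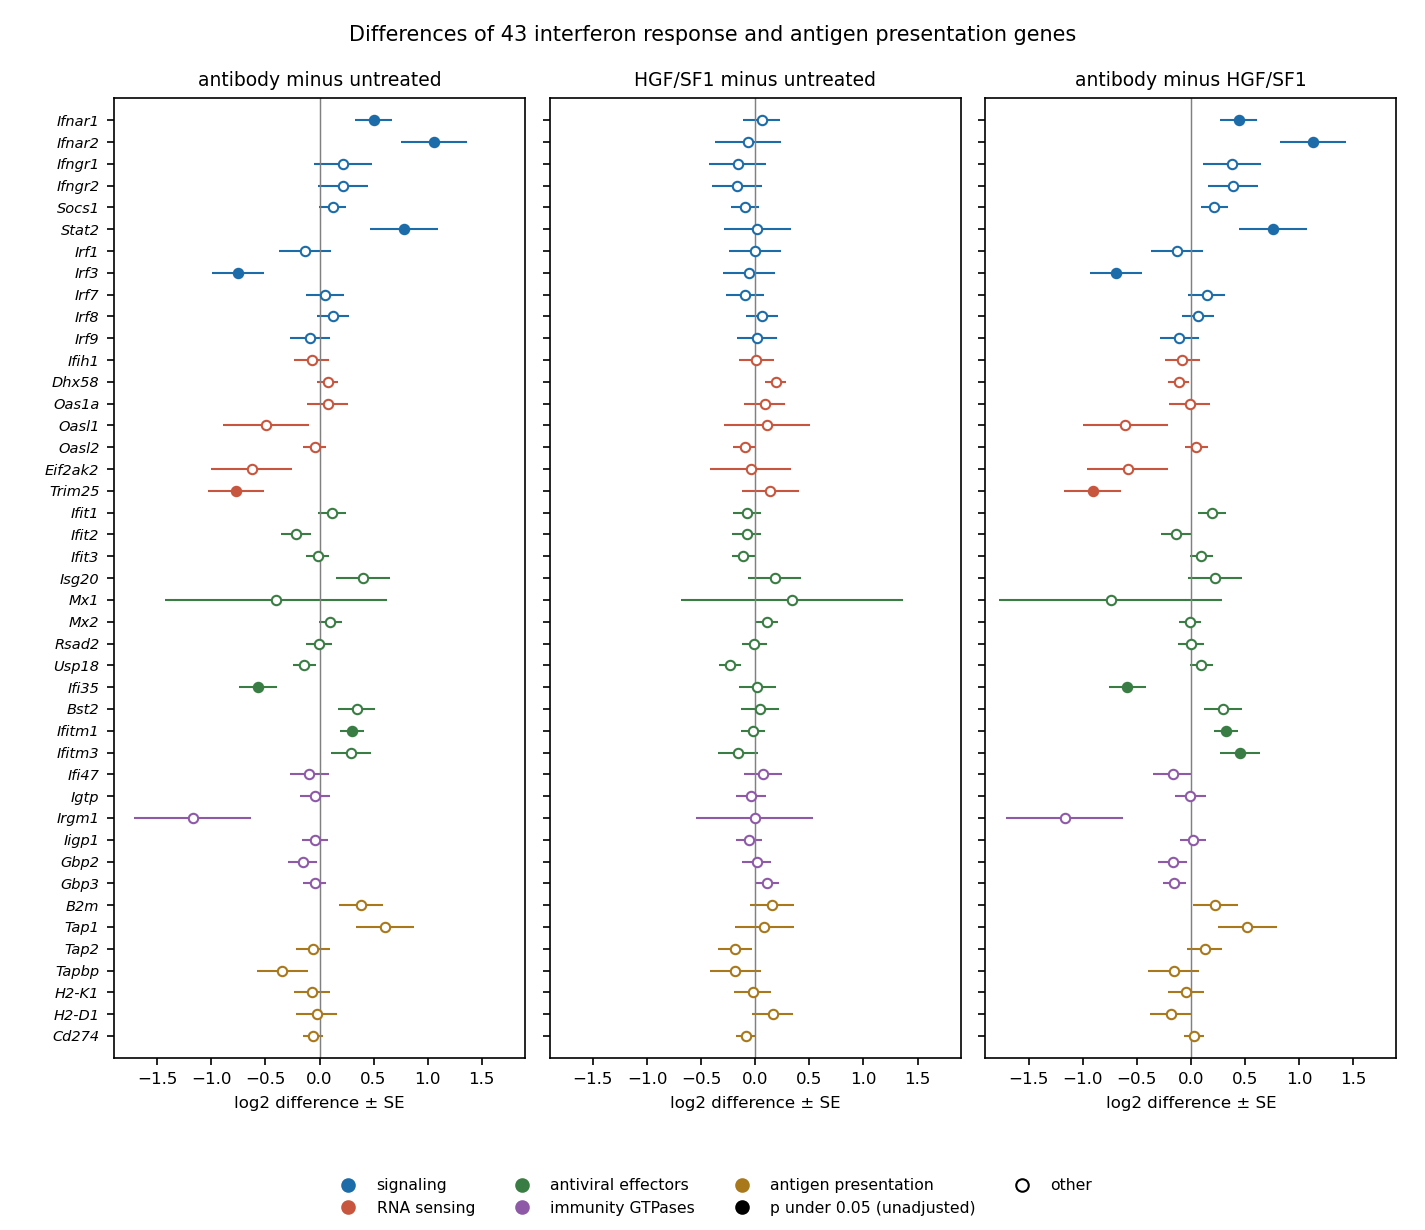
Log2 differences with their standard errors (limma, 3 arrays a group) of the 43 measured members in the 3 comparisons, coloured by role; filled points passed an unadjusted p of 0.05. Filled points appear on both sides of 0 in the antibody comparisons and nowhere in the comparison of HGF/SF1 with untreated cells.

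Both chains of the type I interferon receptor rose at their brightest probe sets. Ifnar2, the high-affinity chain, had log2 values of 10.05, 10.46 and 10.66 in untreated cells of experiments 1, 2 and 3, of 9.88, 10.47 and 10.62 under HGF/SF1, and of 10.86, 11.55 and 11.94 under the antibody. All 3 antibody arrays lay above the other 6. The difference from untreated cells was 1.06 (SE 0.31, limma, adjusted p = 0.238), or 2.09-fold, and within experiments it was 0.81, 1.09 and 1.28.

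A second probe set of Ifnar2 went the other way. Its untreated values were 7.15, 7.90 and 7.73 and its antibody values 7.60, 6.86 and 6.41, a difference of -0.64 (SE 0.31) that did not pass, and the groups overlapped. Averaged over both probe sets the difference was 0.21 and did not pass. The gene encodes a membrane form and a soluble form; which transcripts each probe set detects was not examined here.

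Ifnar1, the signal-transducing partner chain, had untreated values of 8.02, 8.24 and 8.30, HGF/SF1 values of 8.25, 8.35 and 8.14 and antibody values of 8.34, 9.02 and 8.70. The antibody arrays lay above the untreated ones, by little in experiment 1, and overlapped the HGF/SF1 arrays. The difference was 0.50 (SE 0.17, limma, adjusted p = 0.316), or 1.41-fold. Over the 18 alternatives (other settings, or arrays left out) it ran from 0.33 to 0.68, and the call was lost without untreated array 1, antibody array 2, experiment 2 or experiment 3.

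The interferon gamma receptor chains differed less. Ifngr1, the ligand-binding chain, read 8.76, 9.05 and 9.10 in untreated cells, 8.30, 9.14 and 8.98 under HGF/SF1 and 8.71, 9.42 and 9.43 under the antibody. Ifngr2, its partner, read 9.20, 9.22 and 9.54, then 9.15, 8.95 and 9.37, then 9.18, 9.38 and 10.06. The groups overlapped for both, each differed from untreated cells by 0.22 (SE 0.27 and 0.23), and neither passed. Without experiment 1 Ifngr1 did, with a difference of 0.35. In the mouse genome (GRCm38.p6) Ifnar2, Il10rb, Ifnar1 and Ifngr2 are neighbouring genes in that order on chromosome 16. Il10rb, a receptor chain for interleukin 10 and interferon lambda, differed by 0.30 (SE 0.13) and did not pass, with all 3 antibody arrays above the untreated ones.

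Stat2, the STAT specific to type I and type III interferon signaling, had untreated values of 6.68, 6.00 and 6.36, HGF/SF1 values of 7.07, 5.78 and 6.26 and antibody values of 7.12, 6.94 and 7.32. The antibody arrays lay above the untreated arrays, while the HGF/SF1 array of experiment 1 lay above the lowest of them. The difference was 0.78 (SE 0.31, limma, adjusted p = 0.378), or 1.72-fold. The second probe set of Stat2 rose as well, by 0.55 (SE 0.23, limma, adjusted p = 0.396). At the brighter one the difference ran from 0.61 to 0.95 over the alternatives, and the call was lost without untreated array 2 or 3, antibody array 1 or 3, experiment 2 or experiment 3.

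Irf3, the factor that RNA sensing activates to start interferon production, fell. It read 8.80, 8.84 and 9.09 in untreated cells, 8.41, 8.88 and 9.27 under HGF/SF1 and 8.55, 7.89 and 8.03 under the antibody. The antibody arrays were below all untreated arrays, and the HGF/SF1 array of experiment 1 was below the highest antibody array. The difference was -0.75 (SE 0.24, limma, adjusted p = 0.279), which is 0.593 of the untreated level, with -0.25, -0.95 and -1.06 within experiments. All 4 probe sets of Irf3 were below 0 in this comparison, between -0.76 and -0.16, and 3 of them passed. At the brightest the smallest difference over the alternatives was -0.60, without experiment 3, and averaged over all 4 probe sets the difference was -0.52. The call was lost without antibody array 2, experiment 2 or experiment 3.

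The other transcription factors of the group did not pass. Irf1, an activator of interferon gamma targets, differed by -0.13 (95% interval -0.68 to 0.42), Irf9, the DNA-binding partner of the STATs, by -0.09 (-0.51 to 0.33), and Irf7, which amplifies type I interferon, by 0.05 (-0.35 to 0.45). Irf8, a factor of myeloid cells, and Socs1, a feedback inhibitor of Janus kinases, were dim and differed by 0.13 (-0.21 to 0.47) and 0.12 (-0.17 to 0.41). In all, 3 of the 11 signaling members rose and 1 fell. The background for this list and those below was 4.68% of all genes risen and 7.92% fallen. The lists differed in brightness: 7 of the 11 signaling members were bright, and 4 of 7 in RNA sensing. So were 3 of 12 antiviral effectors, 1 of 6 immunity GTPases and 4 of 7 antigen presentation genes.

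**Figure D3:**
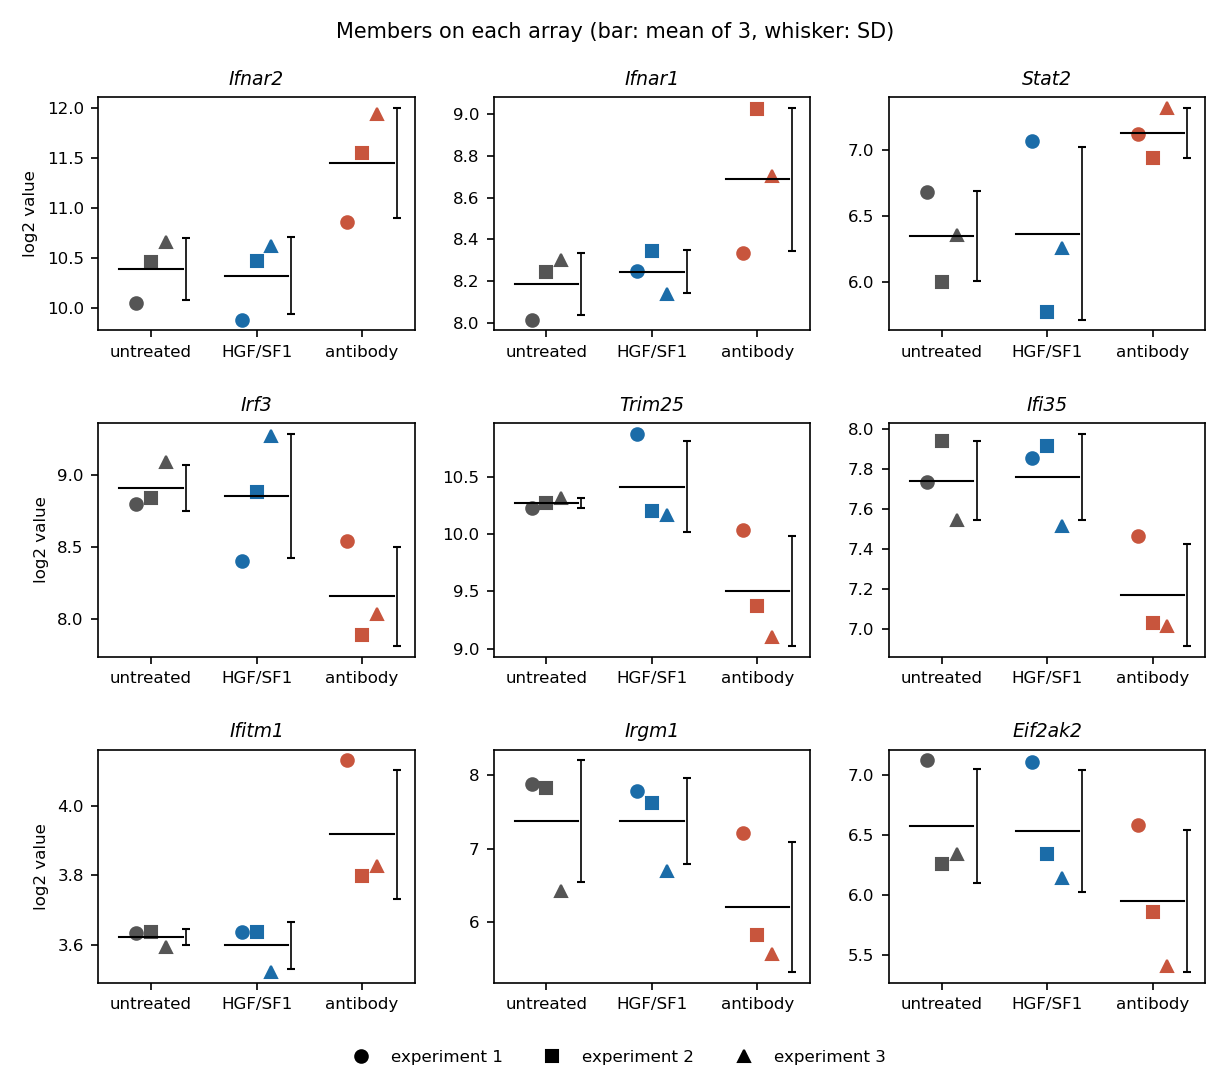
Log2 values on each array for the 7 members that passed between antibody and untreated cells, and for Irgm1 and Eif2ak2, which passed with the experiment as a block; the marker shape gives the experiment, the bar the mean of 3 arrays and the whisker the SD. The antibody arrays of Ifnar2 lie above the other 6 arrays, and those of Trim25 and Ifi35 below them; the array of experiment 1 is the antibody array nearest to the untreated arrays for Ifnar1, Ifnar2, Irf3, Trim25 and Ifi35.

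Among the genes of RNA sensing 1 of 7 fell and 0 rose. Trim25, the ubiquitin ligase that activates the sensor encoded by Ddx58, had untreated values of 10.23, 10.27 and 10.32, HGF/SF1 values of 10.87, 10.21 and 10.16 and antibody values of 10.04, 9.38 and 9.10. All 3 antibody arrays lay below the other 6. The difference was -0.77 (SE 0.26, limma, adjusted p = 0.305), or 0.587 of the untreated level, and within experiments 1, 2 and 3 it was -0.20, -0.90 and -1.21. A second probe set fell by 0.69 (SE 0.20, limma, adjusted p = 0.238), and the third, a dim one, differed by -0.35 (SE 0.47). The call at the brightest was lost without antibody array 2 or 3, experiment 2 or experiment 3, with differences of -1.06 to -0.55 over the alternatives.

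Eif2ak2, the kinase PKR that halts translation on binding double-stranded RNA, read 7.12, 6.26 and 6.34 in untreated cells, 7.11, 6.34 and 6.14 under HGF/SF1 and 6.58, 5.85 and 5.40 under the antibody. The level was highest in experiment 1 in each condition, so that the groups overlapped although the antibody array was the lowest of its experiment in all 3. The difference of -0.63 (SE 0.37) did not pass, but did with the experiment as a block, where its SE was 0.12 (limma, adjusted p = 0.077), and without antibody array 1 or experiment 1. The second probe set differed by -0.60 (SE 0.35).

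Oasl1, which restrains Irf7 translation, read 6.47, 7.02 and 7.94 in untreated cells, 6.94, 6.89 and 7.93 under HGF/SF1 and 6.66, 6.42 and 6.86 under the antibody. Its difference of -0.50 (SE 0.40) did not pass. Oas1a, an oligoadenylate synthetase, differed by 0.08 (-0.36 to 0.51, 95% interval). The helicases encoded by Ifih1 and Dhx58 and the dim Oasl2 differed by -0.07, 0.08 and -0.05.

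Of the 12 measured antiviral effectors 1 rose and 1 fell. Ifi35, an interferon-induced leucine zipper protein, read 7.74, 7.94 and 7.55 in untreated cells, 7.85, 7.91 and 7.52 under HGF/SF1 and 7.47, 7.03 and 7.02 under the antibody. The antibody arrays were below the other 6. The difference was -0.57 (SE 0.17, limma, adjusted p = 0.260), and the call held in 17 of 18 alternatives, more than for any other member in this comparison.

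Ifitm1, a membrane protein that restricts viral entry, rose at a dim probe set. Its untreated values were 3.63, 3.64 and 3.59, its HGF/SF1 values 3.64, 3.64 and 3.52 and its antibody values 4.13, 3.80 and 3.83. The difference was 0.30 (SE 0.11, limma, adjusted p = 0.345), with the antibody arrays above the other 6. The call was lost without any 1 of the untreated arrays, without antibody array 1, and without any 1 of the experiments (differences of 0.19 to 0.37 over the alternatives). Ifitm3, its relative, read 5.05, 5.06 and 5.00, then 5.06, 5.06 and 4.51, then 5.59, 5.34 and 5.06. Its groups overlapped, and the difference of 0.29 (SE 0.18) did not pass, but did without experiment 3 (0.41).

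Bst2, the tetherin that holds budding virus on the cell surface, read 6.42, 6.44 and 6.84 in untreated cells, 6.71, 6.41 and 6.71 under HGF/SF1 and 6.82, 6.71 and 7.19 under the antibody. The difference of 0.34 (SE 0.17) did not pass, but did with the block (limma, adjusted p = 0.177), with arrays centred on their medians and without untreated array 3, and the antibody array was highest within each experiment. Isg20, an exonuclease, read 10.41, 10.44 and 9.93, then 10.91, 10.52 and 9.90, then 10.64, 10.70 and 10.65. Its antibody arrays lay above the untreated ones, and the difference of 0.40 (SE 0.25) did not pass.

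The genes most often taken as signs of an interferon response did not pass. Ifit1, Ifit2 and Ifit3, which bind viral RNA or support its sensing, differed by 0.12 (95% interval -0.18 to 0.42), -0.22 (-0.53 to 0.09) and -0.02 (-0.26 to 0.23). Rsad2, which encodes viperin, differed by -0.0024 (-0.28 to 0.27), Mx2, a dynamin-like GTPase, by 0.10 (-0.14 to 0.34), and Usp18, which removes Isg15 from proteins, by -0.14 (-0.38 to 0.10). All were dim. The probe set shared by Isg15 and Gm9706 differed by -0.21 (SE 0.14) and did not pass. Mx1 varied more between experiments than between conditions, with 7.32, 5.02 and 4.40 in untreated cells, 8.25, 4.80 and 4.72 under HGF/SF1 and 5.23, 4.70 and 5.61 under the antibody, and its interval (-2.76 to 1.95) leaves its direction unsettled.

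Among the immunity GTPases, which attack the vacuoles of intracellular pathogens, 0 of 6 passed. At their brightest probe sets all 6 had differences below 0, between -1.17 and -0.04, where 49.7% of all genes lay above 0. Irgm1, which regulates the other GTPases of its family, was the bright one. It read 7.89, 7.82 and 6.43 in untreated cells, 7.79, 7.62 and 6.71 under HGF/SF1 and 7.22, 5.83 and 5.58 under the antibody. The antibody array was the lowest of each experiment, with differences of -0.67, -2.00 and -0.85 from untreated cells, but the untreated array of experiment 3 lay below the antibody array of experiment 1. The difference of -1.17 (SE 0.54) did not pass, but did with the experiment as a block, where its SE was 0.26 (limma, adjusted p = 0.093), with a trended, robust prior, and without untreated array 3, antibody array 1, experiment 1 or experiment 3. The other 5 (Ifi47, Igtp, Iigp1, Gbp2 and Gbp3) were dim and lay between -0.16 and -0.04. A second probe set of Iigp1 differed by 0.03.

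Class I antigen presentation did not pass for any of its 7 genes. B2m, the light chain of every class I molecule, differed by 0.38 (95% interval -0.09 to 0.85), H2-K1 and H2-D1, the heavy chains, by -0.07 (-0.46 to 0.32) and -0.03 (-0.46 to 0.41), and Tapbp, the tapasin that loads peptide, by -0.34 (-0.88 to 0.20). Over all their probe sets the 4 of H2-K1 lay between -0.14 and 0.08 and the 9 of H2-D1 between -0.19 and 0.17; these genes are near-identical to other class I genes, so that the share of signal due to each is uncertain. Cd274, the checkpoint ligand, was dim and differed by -0.06 (-0.27 to 0.15).

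Tap1, a subunit of the peptide transporter, had the largest difference of the 7. It read 5.55, 5.84 and 5.05 in untreated cells, 5.39, 5.78 and 5.52 under HGF/SF1 and 5.59, 6.13 and 6.54 under the antibody. The difference of 0.61 (SE 0.27) did not pass, but did with the block (limma, adjusted p = 0.274), with centred arrays, and without untreated array 2, antibody array 1 or experiment 1. It lay between -0.08 and 0.18 at the 3 other probe sets. Tap2, the other subunit, differed by -0.06 (-0.43 to 0.30).

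**Figure D4:**
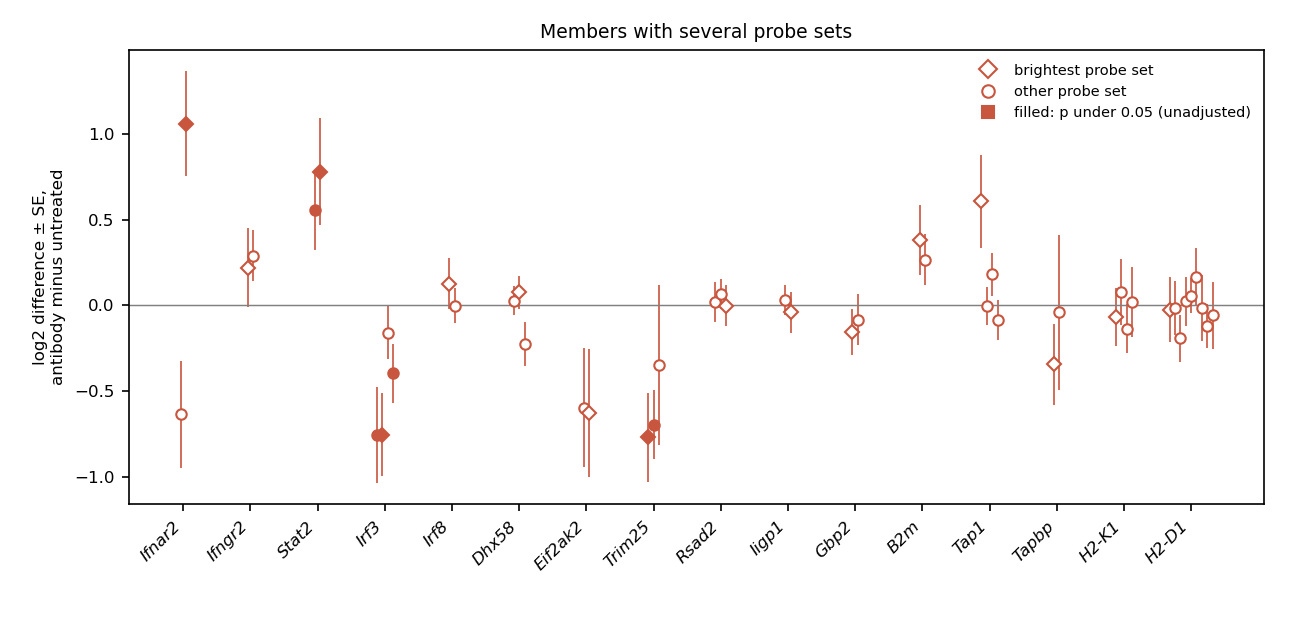
Log2 differences between antibody and untreated cells, with standard errors (3 arrays a group), for every probe set of the 16 members that had several; diamonds mark the brightest probe set and filled symbols an unadjusted p under 0.05. Stat2, Irf3, Trim25 and Eif2ak2 have all their probe sets on 1 side of 0, and Ifnar2 has its pair on opposite sides.

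The members with the GAAANNGAAA letters shown above for Ifit1, B2m, Stat2 and Irgm1 went both ways or did not pass. Of 15 measured members with those letters 1 rose (Stat2) and 0 fell, and their median difference was -0.0024; of the 22 measured members with a window but without the letters 3 rose and 3 fell, with a median of -0.05. With the experiment as a block 2 with the letters rose (Stat2 and Bst2) and 2 fell (Eif2ak2 and Irgm1), and without the letters 4 rose and 3 fell. Bright probe sets made up 6 of the 15 and 13 of the 22. Over all genes 4.68% rose and 7.92% fell without the block, and 7.81% and 10.7% with it. Of 12 measured members with TTCNNNGAA, as in the Ifnar2 sequence above, 2 rose without the block (Ifnar1 and Ifnar2) and 1 fell (Ifi35). Of 25 with a window but without TTCNNNGAA 2 rose and 2 fell. Bright probe sets made up 8 of the 12 and 11 of the 25. Irf3, Trim25 and Ifitm1 held neither set of letters, and Stat2 held GAAANNGAAA only.

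Under HGF/SF1, the growth factor that also scatters these cells, no member passed. Compared with untreated cells 0 of 43 members rose and 0 fell in limma, at an unadjusted p under 0.05 and after adjustment, where 0.533% of all genes rose and 0.307% fell without adjustment. The differences ran from -0.24 to 0.34, with a median of -0.0057 against 0.0080 over all genes. For 40 of the 43 members the 95% interval of the difference lay within a change of 1 on the log2 scale either way; the exceptions were Oasl1, Mx1 and Irgm1, which varied between experiments. Among the other probe sets of members, a dim one of the 9 for H2-D1 was lower under HGF/SF1 by -0.33 (SE 0.13, limma, adjusted p = 1).

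Usp18, the negative regulator of type I interferon signaling, was the member nearest to a call under HGF/SF1. Its values were 3.87, 3.71 and 3.67 in untreated cells, 3.59, 3.54 and 3.40 under HGF/SF1 and 3.71, 3.59 and 3.52 under the antibody. The HGF/SF1 arrays lay below the untreated ones at a dim probe set, and the difference of -0.24 (SE 0.10) did not pass. It did with the block (limma, adjusted p = 1), with a trended, robust prior, in the fit on gene means over probe sets, and without HGF/SF1 array 1. With the block 0 members rose and 1 fell, against 1% and 0.662% of all genes. At Dhx58, also dim, the HGF/SF1 arrays lay above the untreated ones, and it did not pass with or without the block.

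For Ifnar2, Stat2, Irf3 and Trim25 the differences under HGF/SF1 were -0.06, 0.02, -0.06 and 0.14, beside 1.06, 0.78, -0.75 and -0.77 under the antibody. These comparisons share the untreated arrays, and the direct comparison of the treatments tests them against each other. Between antibody and HGF/SF1 5 members were higher under the antibody (Ifnar1, Ifnar2, Stat2, Ifitm1 and Ifitm3; 11.6%) and 3 lower (Irf3, Trim25 and Ifi35; 6.98%), where 5.19% and 8.96% of all genes were. After adjustment 0 members passed in limma, against 0.0242% of all genes. Among these differences were 1.13 for Ifnar2 (SE 0.31), 0.76 for Stat2 (SE 0.31), -0.70 for Irf3 (SE 0.24) and -0.91 for Trim25 (SE 0.26), with limma adjusted p = 0.196, 0.350, 0.268 and 0.211. Without HGF/SF1 array 3 alone the higher count was 1 (Ifnar2; 4.49% of all genes), with the calls of Ifnar1, Stat2, Ifitm1 and Ifitm3 lost, and that of Irf3 was lost as well. The calls of Ifnar1, Stat2 and Ifitm3 were also lost with only the 6 arrays compared, and that of Irf3 without antibody array 2 or 3.

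With the block 8 members were higher under the antibody than under HGF/SF1 and 6 lower, where 8.73% and 11.6% of all genes were. The added ones were Bst2, Ifngr1 and Ifngr2 on the higher side, with differences of 0.30, 0.38 and 0.39, and Eif2ak2, Irgm1 and Oasl1 on the lower side, with -0.58, -1.17 and -0.61. Ifnar2 passed after adjustment (limma, adjusted p = 0.038), as did 1.13% of all genes. Without experiment 2 the counts were 0 and 0, where 2.14% and 3.65% of all genes passed.

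The group varied between experiments even without treatment. Over the 3 untreated arrays the median range of a member was 0.37, against 0.30 over all genes, and 3 members spanned more than 1 on the log2 scale (Mx1 2.92, Oasl1 1.47 and Irgm1 1.46), where 4.91% of all genes did. The median difference of the members between antibody and untreated cells was 0.00, -0.11 and 0.12 in experiments 1, 2 and 3, with 20, 15 and 28 of 43 above 0. In experiment 1 the antibody moved the members least, with a median absolute difference of 0.19, against 0.27 and 0.30 in the others; over all genes these were 0.16, 0.21 and 0.21.

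Around the group, 5 lists of other pathway genes gave the following counts between antibody and untreated cells, read against the same 4.68% and 7.92%. After Benjamini-Hochberg adjustment 0 genes of each list passed in the fit without the block, against 0.0403% of all genes. Of 19 measured ligands, other receptors and Janus kinase and STAT genes 1 rose, the phosphatase gene Ptpn2 (0.42, SE 0.12), which dampens STAT signaling, and 1 fell, Tyk2 (-0.60, SE 0.11), the kinase bound to Ifnar1. Tyk2 read 7.01, 6.99 and 6.93 in untreated cells and 6.57, 6.19 and 6.38 under the antibody, with no overlap. Of 15 measured adaptors and kinases of nucleic acid sensing 2 rose (Samhd1 0.46 and Tank 0.40) and 4 fell. Those were Myd88 (-1.31, SE 0.35), the adaptor of Toll-like receptors, Tlr3 (-0.67), a receptor of double-stranded RNA, the Irf3 kinase gene Tbk1 (-0.31) and Traf6 (-0.60). With the experiment as a block 3 rose and 1 fell in the first of these lists and 3 rose and 3 fell in the second.

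Of 41 other interferon-stimulated genes 3 rose and 3 fell. The 4 with the smallest p were Znfx1 (-0.80), an RNA helicase, Ifitm2 (-0.31), a relative of Ifitm1, Plscr1 (0.56), a phospholipid scramblase, and Gch1 (1.11), which makes a cofactor of nitric oxide synthase. With the block 3 rose and 5 fell. Of 17 other class I processing genes 0 passed, but with the block 2 rose, Mr1 (0.29) and Psme3 (0.28), and 3 fell, Psmb10 (-0.60), Calr (-0.52) and Pdia3 (-0.42), which are named here after their values were seen. Of 14 class II genes 0 rose and 1 fell, H2-DMa (-0.71), at a dim probe set, with the block too. Under HGF/SF1 2 of the 41 rose, both dim, Ifi204 (0.42) and Ccl5 (0.26), and 0 fell (1 and 0 with the block), and in the other 4 lists 0 passed either way.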

How the data were processed

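RNA of 3 conditions in 3 experiments was hybridised to 9 Affymetrix Mouse430A_2 arrays. The authors processed all arrays jointly (affylmGUI, background corrected by rma); the deposited values are on a log2 scale, 1 per probe set and array, and versions and the probe set summary were not given in the sources used here. Of 22690 probe sets, 64 controls were left out. Probe sets were named through the platform annotation and RefSeq: 20380 named 1 gene, 691 several and 1555 none. All 22626 were fitted with limma 3.58.1 in R 4.3.3 (one mean per condition, moderated variance), which was tested on simulated data. A member was called at an unadjusted p under 0.05, after the methods; adjusted p-values (Benjamini-Hochberg) span all probe sets. Array titles carry a number that the arrays of an experiment share, and the labels do not say what it marks. Deviations from condition means correlated at 0.096 to 0.591 within experiments and at -0.484 to 0.031 between them. Block values are therefore given where they change a call of a member, and block counts for the other pathway lists against untreated cells. All 46 members are accounted for, with array values for the 16 called in a comparison or with the block; of other lists, up to 4 called genes with the smallest p are named (2 for HGF/SF1). Members and lists were chosen with earlier results of these data known. With 3 arrays a group the number of arrays limits precision, and p-values measure the spread between 3 experiments with 1 cell line. In all 18 alternatives were run.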

Additional observations from a re-analysis of the deposited data

How the results depend on the processing

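No called member changed direction under any of the 18 alternatives, but several of these could not show such a change. The block, the brightness filter, the fit on the 6 arrays compared and the trended, robust prior leave each difference as it was. So does leaving out an array of the condition not compared. The second probe set of Ifnar2 went the other way (-0.64 against untreated cells). With the experiment as a replicate block the count of members lower under the antibody than in untreated cells was 5 in place of 3, the count higher 6 in place of 4, the count lower under HGF/SF1 1 in place of 0, and between antibody and HGF/SF1 8 were higher and 6 lower in place of 5 and 3; the block leaves the medians as they were. Between antibody and HGF/SF1 the higher count was 3 with only probe sets above the median brightness (7.18% of all genes there) and 2 with only the 6 arrays compared (4.22%). The lower count under HGF/SF1 was 1 with a trended, robust prior (0.379% of all genes) and 1 with the mean of all probe sets of a gene (0.299%). With arrays centred on their medians the HGF/SF1 median of the members was 0.026 in place of -0.0057. The brightness filter left out the dim Ifitm1 and Ifitm3, and centring shifts every gene of a comparison by the same amount. The cause of the other changes was not tested.

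Leaving out 1 array or 1 experiment at a time gave 0 to 5 members higher and 0 to 5 lower between antibody and untreated cells (1.67% to 7.71% and 2.22% to 11.7% of all genes), and a median of -0.051 to 0.095. Between HGF/SF1 and untreated cells it gave 0 to 1 higher and 0 to 1 lower (0.363% to 0.992% and 0.169% to 0.992% of all genes), with a median of -0.055 to 0.058. Between antibody and HGF/SF1 it gave 0 to 5 higher and 0 to 5 lower (2.14% to 7.90% and 3.65% to 11.7% of all genes). Every 0 in the antibody comparisons came from leaving out experiment 2. Without untreated array 1, or without experiment 3, 2 members were higher than untreated; without antibody array 2, 1 was lower; without antibody array 1, or without experiment 1, 5 were lower. Of the 18 alternatives the call of Ifi35 against untreated cells held in 17, that of Ifnar2 in 16, Irf3 in 15, Ifnar1 and Trim25 in 14, Stat2 in 12, and that of Ifitm1 in 10 of the 17 that kept its dim probe set. For the 24 dim members a change in the transcript may lie under the background signal of the array, and the arrays do not show by how much.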
